A study of Mus musculus with 58 samples.

Results

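The 6 genes described here encode a receptor pathway of microglia, the resident macrophages of the brain: the receptor gene Trem2, its adaptor Tyrobp (DAP12), the kinase gene Syk, the phospholipase gene Plcg2, the phosphatase gene Inpp5d (SHIP1) and the lectin gene Cd33. They were taken by symbol from 3 tables of raw counts, and all 6 were present and passed the filter on low counts in each. The tables list 24940 genes (age series), 10277 genes (WT mice given antisense oligonucleotides) and 10589 genes (SgshKO mice given antisense oligonucleotides).

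TREM2 binds lipids, lipoproteins and cell debris outside the cell but has no signalling tail of its own. It pairs in the membrane with TYROBP, whose cytoplasmic ITAM motif is phosphorylated by Src-family kinases and then recruits SYK, which activates PLCG2 and phosphoinositide 3-kinase. SHIP1 removes a phosphate from the lipid product of that kinase, and human CD33 recruits phosphatases through ITIM motifs, so both restrain the pathway. In microglia the pathway is known for its part in the uptake of debris and lipid and in the shift of microglia to a disease-associated state, and several of its genes carry risk variants for Alzheimer disease.

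Forebrain microglia of C57BL/6 mice were gated as live CD11b+ cells with low CD45 and with CX3CR1, and their polyA RNA was sequenced. WT mice were compared with SgshKO mice, labelled as knockouts of Sgsh, a lysosomal enzyme that degrades heparan sulfate. There were 3 WT and 4 SgshKO libraries at 3 weeks, 2 of each at 4 months, and 4 WT and 7 SgshKO libraries at 8 months. An antisense oligonucleotide (ASO) lowers the transcript it pairs with. WT mice received PBS, a control ASO (ntc), or 1 ASO, to Mitf, to Tfeb or to Tfe3, which encode transcription factors of lysosomal genes (4 libraries a group). SgshKO mice received ntc or the Mitf and Tfe3 ASOs together (8 libraries a group). Each was given as 1 injection into the cerebral ventricles 14 days before collection, which all ASO groups share, and the labels give neither the age of these mice nor a sex. The labels do not say whether each library came from a separate animal, so p-values measure the spread between these libraries, which may be technical.

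Libraries of the age series held 8191508 to 27106584 counts, those of WT ASO mice 14372015 to 30378870 and those of SgshKO ASO mice 12517838 to 30431437. Sgsh itself was still counted in SgshKO libraries, at 20.1 to 34.7 CPM (counts per library total scaled by TMM factors, as CPM) at 8 months against 31.9 to 59.2 CPM in WT, so its level does not by itself separate the genotypes. The ASOs lowered their targets: in WT, Mitf fell by 4.81, Tfeb fell by 3.24 and Tfe3 fell by 2.38 on the log2 scale, and in SgshKO mice Mitf fell by 2.26 and Tfe3 fell by 1.08. All 8 microglial markers on the list were counted in every library, and their summed level was lower in SgshKO than in WT with no overlap: 46952 to 50327 against 52203 to 53774 CPM at 3 weeks, 28515 to 33002 against 42698 to 48092 CPM at 4 months and 30956 to 34433 against 38946 to 47299 CPM at 8 months. Sums of 8 border macrophage markers were higher, with no overlap, at 83.1 to 109 against 55.2 to 76.2 CPM, 71.2 to 124 against 9.46 to 10.5 CPM and 61.6 to 108 against 15.9 to 32.1 CPM. The higher sums do not mean that every one of these markers was counted. At 3 weeks 1 to 4 of the 8 were at 0 in SgshKO libraries and 0 to 1 in WT libraries. At 4 months 1 to 3 were at 0 in both genotypes, and at 8 months 0 to 2 in SgshKO and 2 to 4 in WT. The summed level of 8 neutrophil markers was 2794 to 13827 CPM in SgshKO at 4 months and 406 to 5455 CPM at 8 months, against 0.932 to 29.3 CPM in every other age-series group. Sums of 6 monocyte markers were 338 to 1450.0 CPM and 65.9 to 493 CPM in the same SgshKO groups, against at most 14.7 CPM in the other age-series groups. The SgshKO ASO table holds 5 of the neutrophil and 3 of the monocyte markers, with sums of 1.03 to 516 and 6.33 to 73.9 CPM after the control ASO and 0.996 to 329 and 7.27 to 51.6 CPM after the combination. In the age-series SgshKO libraries of 4 and 8 months none of the 8 neutrophil markers was at 0. In the SgshKO ASO libraries at most 1 of the 5 was at 0.

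Promoter windows of 250 bases before the annotated start were found in RefSeq for 5 of the 6 members (6 windows, GRCm38.p6), and 3 are printed because the ASO targets bind E-boxes and because PU.1, a transcription factor of the macrophage lineage, binds purine-rich motifs. Capitals mark CACGTG (the E-box bound by MITF, TFEB and TFE3; it reads alike on both strands), CATGTG (a related E-box) and GGAAGT (a core that PU.1 binds), searched on both strands.
Trem2, chr17:48346151-48346400, plus strand: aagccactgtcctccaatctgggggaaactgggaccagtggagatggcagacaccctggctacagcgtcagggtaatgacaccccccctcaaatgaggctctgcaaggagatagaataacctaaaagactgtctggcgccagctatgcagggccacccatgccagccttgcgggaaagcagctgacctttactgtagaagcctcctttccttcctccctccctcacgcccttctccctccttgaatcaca
Plcg2, chr8:117498025-117498274, plus strand: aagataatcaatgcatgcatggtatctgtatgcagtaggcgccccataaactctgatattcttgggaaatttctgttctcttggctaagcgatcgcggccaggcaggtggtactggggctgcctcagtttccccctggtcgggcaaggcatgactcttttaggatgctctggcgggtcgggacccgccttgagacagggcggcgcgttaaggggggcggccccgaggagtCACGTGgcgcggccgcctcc
Inpp5d, chr1:87620062-87620311, plus strand: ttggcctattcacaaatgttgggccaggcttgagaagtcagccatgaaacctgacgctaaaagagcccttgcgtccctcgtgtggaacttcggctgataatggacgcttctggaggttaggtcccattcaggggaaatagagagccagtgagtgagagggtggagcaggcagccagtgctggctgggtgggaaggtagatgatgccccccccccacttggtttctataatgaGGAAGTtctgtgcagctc
CACGTG was present in 1 of the 6 member windows, that of Plcg2, beginning 20 bases before the start, and in 6.02% of 32851 promoter windows. CATGTG was in 1 member window (Cd33) and 12.3% of all windows, and GGAAGT in 2 (Inpp5d and Cd33) and 19.7% of all windows. The Trem2 window and both Syk windows held none of these letters. No window was found for Tyrobp, so its promoter was not searched.

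The first question was whether these genes differ between SgshKO and WT microglia at each age. Called means an adjusted p under 0.05 in edgeR's quasi-likelihood test, with Benjamini-Hochberg adjustment over all genes tested. Where groups are said not to overlap, the share of all genes that separate likewise was not counted. At 3 weeks 2 of the 6 members were called, both higher (Tyrobp and Cd33), where 9.03% of all genes were called. At 4 months 1 was called, Tyrobp, against 19.5% of all genes. At 8 months 5 were called, Tyrobp, Trem2 and Plcg2 higher and Inpp5d and Syk lower, against 40.5% of all genes. The median log2 fold change of the members was 0.19, 0.03 and 0.17 at the 3 ages, beside -0.02, 0.02 and 0.02 over all genes. Over all genes 760 of 1292 calls at 3 weeks and 3090 of 5793 at 8 months were higher in SgshKO, against 605 of 1378 and 2241 of 6361 in the deposited TPM (limma, pseudocount 1). A lower level in bulk RNA can mean fewer cells of a type or less RNA per cell, which cannot be told apart here.

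**Figure D1:**
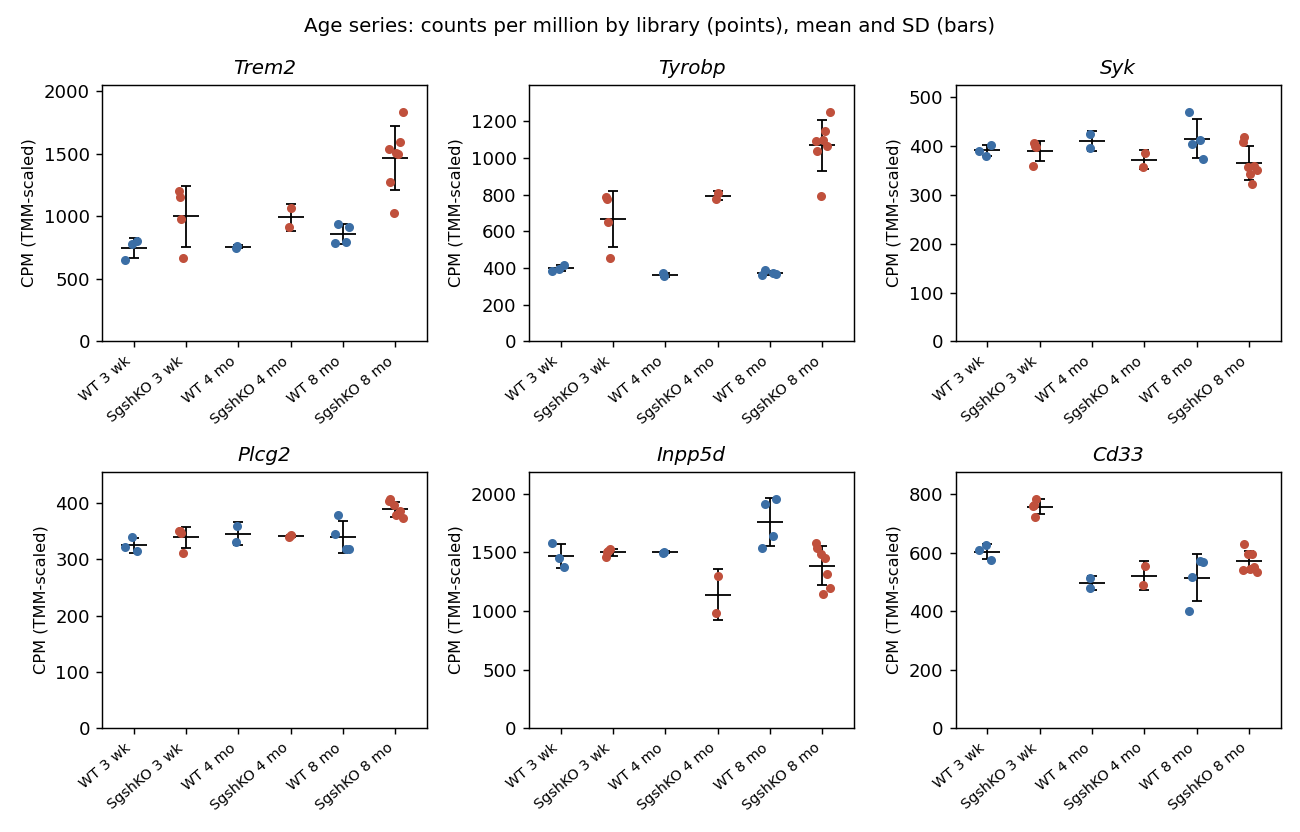
CPM (y axis) of the 6 members in each age-series library (points; WT blue, SgshKO red), with the mean and SD of each group as bars. Tyrobp lies between 792 and 1248 CPM in the 7 SgshKO libraries at 8 months and between 363 and 390.1 CPM in the 4 WT libraries, while the Syk groups overlap at 3 weeks and 8 months.

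Trem2, the receptor gene, was at 778, 802 and 652 CPM in WT and 667, 1155, 1203 and 977 CPM in SgshKO at 3 weeks. SgshKO replicate 1 lay within the WT range and the other 3 above it. At 4 months the values were 748 and 764 CPM in WT and 1068 and 915 CPM in SgshKO. At 8 months WT libraries held 795, 940.1, 913 and 788 CPM, and SgshKO libraries 1025 to 1830.4 CPM with a median of 1508. The groups did not overlap at 8 months, nor at 4 months, where groups of 2 libraries a side often separate by chance. By edgeR the log2 fold change was 0.43 ± 0.16 (SE; adjusted p = 0.122) at 3 weeks, 0.39 ± 0.21 (0.221) at 4 months and 0.77 ± 0.14 (7.23e-05) at 8 months, so the 8-month value alone was called. Without SgshKO replicate 1 the 3-week value was 0.58 (edgeR adjusted p = 0.00929), so that library decides whether Trem2 was called at 3 weeks. It was also called, at 0.43 (edgeR adjusted p = 0.0409), when genes with low counts were kept in the test.

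Tyrobp, the adaptor gene through which TREM2 and several other receptors signal, was higher in SgshKO at every age and with the largest fold change of the 6. At 3 weeks it was at 393, 416 and 386 CPM in WT and 457, 774, 784 and 651 CPM in SgshKO. At 4 months it was at 371 and 355 CPM in WT and 811 and 777 CPM in SgshKO. At 8 months WT libraries held 371, 390.1, 369 and 363 CPM, and SgshKO libraries 792 to 1248 CPM with a median of 1094. Every SgshKO library was above every WT library of its age, and WT libraries of all ages stayed between 355 and 416 CPM. The log2 fold change by edgeR was 0.74 ± 0.14 (SE; adjusted p = 0.000611) at 3 weeks, 1.13 ± 0.18 (6.6e-05) at 4 months and 1.52 ± 0.12 (2.16e-10) at 8 months, or 1.67, 2.19 and 2.86-fold. The SgshKO effect at 8 months exceeded that at 3 weeks by 0.77 ± 0.18 (edgeR adjusted p = 0.00535), the 1 call among the members in that test of the difference, where 9.25% of all genes were called.

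Between 3 weeks and 4 months no member's SgshKO effect was called different (2.52% of all genes; by edgeR 1 member at an unadjusted p under 0.05, and 0 called by DESeq2). Between 4 and 8 months none was called either (0.391% of all genes; 0 members at an unadjusted p under 0.05, and 0 called by DESeq2). Trem2 differed by 0.34 ± 0.21 between 8 months and 3 weeks, with an adjusted p of 0.36 by edgeR. An increasing Trem2 effect with age was therefore not shown.

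Syk, the kinase gene, was at 381, 402 and 390.3 CPM in WT and 398, 405, 359.8 and 399 CPM in SgshKO at 3 weeks. At 4 months the values were 395 and 424 CPM in WT and 386 and 358 CPM in SgshKO. At 8 months they were 413, 405, 374 and 469 CPM in WT, and 322 to 419.7 CPM in SgshKO with a median of 357. The groups overlapped at 3 weeks and 8 months. The log2 fold change was 0.00 ± 0.09 at 3 weeks, -0.14 ± 0.12 at 4 months and -0.18 ± 0.07 at 8 months (edgeR adjusted p = 1, 0.457 and 0.0497). The 8-month call was lost when any 1 of 7 of the 11 libraries was left out (WT replicates 1, 2 and 4, SgshKO replicates 1, 3, 6 and 7; adjusted p up to 0.12), and with 3 of 8 other settings.

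Plcg2, whose enzyme cleaves the membrane lipid PIP2, was at 340.1, 314 and 322 CPM in WT and 311, 349.5, 350.0 and 347 CPM in SgshKO at 3 weeks. At 4 months it was at 332 and 360.0 CPM in WT and 343 and 340.1 CPM in SgshKO. WT libraries at 8 months held 318, 378, 318 and 345 CPM and SgshKO libraries 373 to 407 CPM with a median of 386. WT replicate 2 overlapped the SgshKO libraries and the other WT libraries lay below all of them. The log2 fold change by edgeR was 0.06 ± 0.07, -0.02 ± 0.10 and 0.20 ± 0.06 at the 3 ages (adjusted p = 0.759, 0.925 and 0.0116). Plcg2 was no longer called at 8 months if WT replicate 1 (0.17; edgeR adjusted p = 0.0537) or WT replicate 3 (0.16; 0.0553) was left out, nor with low-count genes kept (0.0505). In the deposited TPM the Plcg2 difference was 0.06 (limma on log2(TPM + 1); adjusted p = 0.437), where the median of all genes was -0.11.

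Inpp5d, the phosphatase gene, did not differ by call at 3 weeks, with 1455, 1371 and 1580.1 CPM in WT and 1529, 1500.3, 1459.8 and 1511 CPM in SgshKO. At 4 months it was at 1494 and 1506 CPM in WT and 1295 and 984 CPM in SgshKO. At 8 months it was at 1639, 1912, 1955 and 1536 CPM in WT, and 1144 to 1582 CPM in SgshKO with a median of 1456. SgshKO libraries were below WT at 4 months with no overlap, which groups of 2 libraries a side often show by chance. At 8 months 2 of 7 reached above the lowest WT library. The log2 fold change by edgeR was 0.03 ± 0.11 (adjusted p = 0.942), -0.40 ± 0.15 (0.0571) and -0.34 ± 0.09 (0.00348) at the 3 ages. Inpp5d was thus lower in SgshKO than in WT at 8 months, in the direction opposite to Trem2 and Tyrobp. From 3 weeks to 8 months its mean went from 1469 to 1760 CPM in WT and from 1500.2 to 1388 CPM in SgshKO, neither called. At 4 months the result turned on single libraries and tools: it was -0.64 (edgeR adjusted p = 0.00883) without SgshKO replicate 1, -0.26 (0.358) without SgshKO replicate 2, which had the highest neutrophil marker sum, and -0.38 with an adjusted p of 0.0368 by DESeq2.

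Cd33 encodes a sialic acid-binding receptor that restrains phagocytosis in human microglia, and the mouse protein differs from the human one in its signalling motifs. It was at 625, 574 and 609 CPM in WT and 782, 763, 759 and 723 CPM in SgshKO at 3 weeks, with no overlap. At 4 months the values were 514 and 479.9 CPM in WT and 555 and 487 CPM in SgshKO, and at 8 months 573, 516, 569 and 399 CPM in WT and 533 to 629 CPM in SgshKO, with a median of 550.2. The groups overlapped at both of these ages. The log2 fold change by edgeR was 0.33 ± 0.10 (adjusted p = 0.0338) at 3 weeks, 0.07 ± 0.13 (0.758) at 4 months and 0.15 ± 0.08 (0.151) at 8 months. The 3-week call was lost when any 1 of 6 of the 7 libraries was left out (all but SgshKO replicate 4; adjusted p up to 0.145), and the value then ran from 0.30 to 0.36. Whether the Cd33 effect differs between ages was not resolved: 8 months against 3 weeks gave -0.18 ± 0.13 (edgeR adjusted p = 0.436).

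Neutrophils and monocytes also transcribe Tyrobp, Syk, Plcg2, Inpp5d and Cd33, and their markers moved with genotype at 4 and 8 months, as did the microglial and border macrophage sums at all 3 ages. Sums of 6 endothelial markers were also higher in SgshKO at 4 months (409 to 427 against 339 to 355 CPM) and 8 months (384 to 533 against 312 to 366 CPM). Those of 6 astrocyte markers were higher at 3 weeks (191 to 265 against 153 to 165 CPM). Those of 6 neuron markers were higher at 4 months (5.33 to 7.70 against 1.42 to 3.37 CPM). At the other ages the endothelial, astrocyte and neuron sums overlapped between genotypes, and oligodendrocyte and lymphocyte sums overlapped at every age. The part of any of these cell types in the member differences was not tested. At 3 weeks the neutrophil sum was at most 29.3 CPM in SgshKO and 6.03 CPM in WT, and the Tyrobp log2 fold change was 0.74. The SgshKO library with the highest sum at 8 months, replicate 3 (5455 CPM), had 1096 CPM of Tyrobp and 1508 CPM of Trem2. The SgshKO library with the lowest sum, replicate 6 (406 CPM), had 1064 and 1593 CPM. Leaving out any 1 library at 8 months left the Tyrobp log2 fold change between 1.47 and 1.55.

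Transcript length also moved with genotype. Among genes with transcripts under 1000 bases the median log2 fold change was 0.32 at 8 months (0.08 at 3 weeks and 0.23 at 4 months), and among genes of 4000 bases or more it was -0.07. Tyrobp (559 bases) and Trem2 (1139 bases) are the shortest of the members, and Plcg2, Inpp5d and Syk are 4279, 4911 and 5083 bases long. Trem2 and Cd33 (2562 bases) lie in the class between, where the median at 8 months was 0.04. With a trend over length in each library entered as an offset, a step added after the data had been seen, Tyrobp was 0.58 (adjusted p = 6.23e-05), 0.81 (1.36e-05) and 0.96 (1.98e-10) higher at the 3 ages by edgeR. That is still a call at each age, but smaller than 1.52 at 8 months. Trem2 at 8 months was 0.51 (edgeR adjusted p = 0.000178), Inpp5d -0.29 (0.00516) and Plcg2 0.24 (0.00355), while Syk was not called at -0.13 (0.14).

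**Figure D2:**
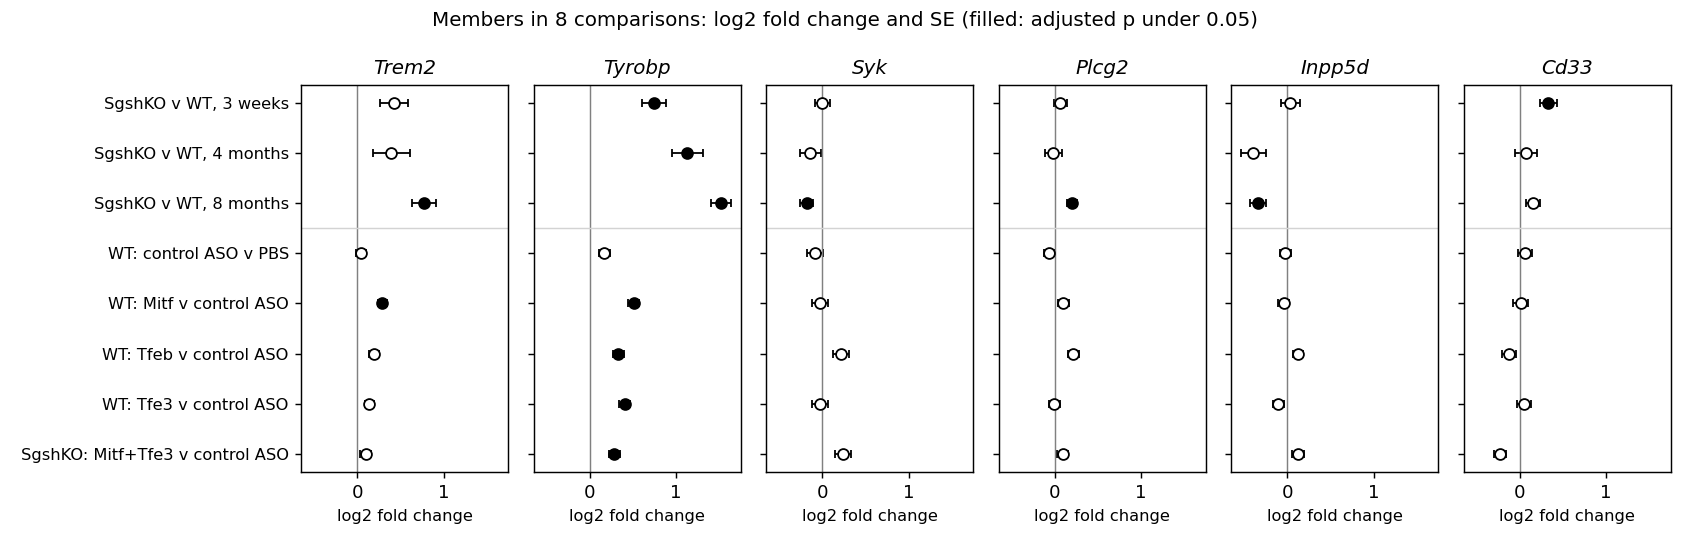
Log2 fold change (x axis) of each member (panels) with its standard error in 8 comparisons (rows); filled points have an adjusted p under 0.05 in edgeR. Tyrobp is called in all but control ASO against PBS, and reaches 1.52 at 8 months, while Syk, Plcg2 and Inpp5d have no filled point below the line that separates the ASO comparisons.

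Ageing was examined next within each genotype. In WT none of the 6 members was called between 3 weeks and 4 months (5.21% of all genes), between 3 weeks and 8 months (7.65%) or between 4 and 8 months (5.77%) by edgeR. At an unadjusted p under 0.05 there were 1, 2 and 0 members in these comparisons, and DESeq2 called 0 in each. The largest WT shift was that of Cd33, -0.28 ± 0.12 from 3 weeks to 4 months (edgeR adjusted p = 0.195). With the length offset Inpp5d was called higher in WT at 8 months than at 3 weeks (0.34, edgeR adjusted p = 0.0344).

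In SgshKO mice 2 members were called between 3 weeks and 4 months, against 32.7% of all genes, and both were lower at 4 months. Cd33 fell by 0.54 ± 0.11 (SE; edgeR adjusted p = 0.000784) and Inpp5d fell by 0.40 ± 0.13 (0.0196). Between 3 weeks and 8 months 4 were called, against 30.6% of all genes: Tyrobp 0.68 ± 0.11 (edgeR adjusted p = 6.44e-05), Trem2 0.55 ± 0.14 (0.00321) and Plcg2 0.20 ± 0.06 (0.015) rose, and Cd33 fell by 0.41 ± 0.08 (0.000298). Every SgshKO library at 8 months was above the 4 libraries of 3 weeks in Tyrobp and Plcg2 and below them in Cd33, while Trem2 overlapped. How many of all genes separate between these groups was not counted. With the length offset Tyrobp rose by 0.26 (edgeR adjusted p = 0.00907) over this span. The Plcg2 call was lost without SgshKO replicate 1 of 3 weeks (edgeR adjusted p = 0.086), with replicate number as a block (0.0505), with low-count genes kept (0.0531) and in TPM by limma (0.0559).

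Between 4 and 8 months Trem2 (0.56 ± 0.18; edgeR adjusted p = 0.0279) and Tyrobp (0.43 ± 0.15; 0.0412) were called in SgshKO, against 19.8% of all genes. Both rest on 2 libraries at 4 months: without replicate 2 of that age the edgeR adjusted p was 0.227 for Trem2 and 0.206 for Tyrobp. The Tyrobp call was also lost without replicate 1 of 4 months or replicate 1, 3, 4, 6 or 7 of 8 months (edgeR adjusted p of 0.054 to 0.0906). With the length offset Tyrobp was 0.23 (edgeR adjusted p = 0.0823) and Inpp5d was called instead (0.34; 0.0271). With replicate number as a block neither Trem2 nor Tyrobp was called (edgeR adjusted p = 0.169 and 0.227), and Tyrobp was also not called with RLE factors (0.0561) or in TPM by limma (0.0743). Inpp5d fell from 3 weeks to 4 months by 0.40 on the log2 scale, and its value was -0.26 (edgeR adjusted p = 0.245) without that replicate 2.

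Levels between genes were compared in the deposited TPM, which divides by transcript length. In WT at 3 weeks Tyrobp was at 1096 ± 29.6 TPM and Trem2 at 1023 ± 106 TPM (SD, n = 3), a pair not separated by their spread. Inpp5d followed at 461 ± 38.5 TPM and Cd33 at 365 ± 19.1 TPM. Syk at 118 ± 2.51 TPM and Plcg2 at 117 ± 5.54 TPM were lowest, and their difference was within their spread. At 8 months WT held 1207 ± 98.9 TPM of Trem2, 1044 ± 22.1 of Tyrobp, 561 ± 60.2 of Inpp5d, 314 ± 46.4 of Cd33, 128 ± 13.9 of Syk and 124 ± 10.2 of Plcg2 (SD, n = 4). There Trem2 was above Tyrobp by more than their SDs, and Syk and Plcg2 again did not differ beyond theirs. SgshKO at 8 months held 2701 ± 291 TPM of Tyrobp, 1849 ± 282 of Trem2, 401 ± 55.6 of Inpp5d, 318 ± 26.8 of Cd33, 129 ± 7.0 of Plcg2 and 102 ± 10.7 of Syk (SD, n = 7). There Tyrobp was first and Syk last, and each neighbour in the order was apart by more than its SD. All 6 members were at or above the 96.3 percentile of listed genes in every library. For Trem2 and Cd33 the TPM table uses another transcript (1084 and 2480 bases) than the count table (1139 and 2562 bases).

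The adaptor and the receptor thus changed by different amounts. The ratio of Tyrobp to Trem2 TPM was 1.08 ± 0.10, 0.97 ± 0.04 and 0.87 ± 0.06 in WT at 3 weeks, 4 months and 8 months, and 1.35 ± 0.03, 1.63 ± 0.13 and 1.47 ± 0.11 in SgshKO (SD). Every SgshKO library (lowest 1.32) was above every WT library (highest 1.19). The ratio of Inpp5d to Syk was 3.89 ± 0.33, 3.79 ± 0.17 and 4.45 ± 0.89 in WT and 3.98 ± 0.16, 3.16 ± 0.44 and 3.94 ± 0.43 in SgshKO, with overlap at 3 weeks and 8 months. The 2 genes of the first ratio differ in transcript length, so the length trend above also enters it.

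**Figure D3:**
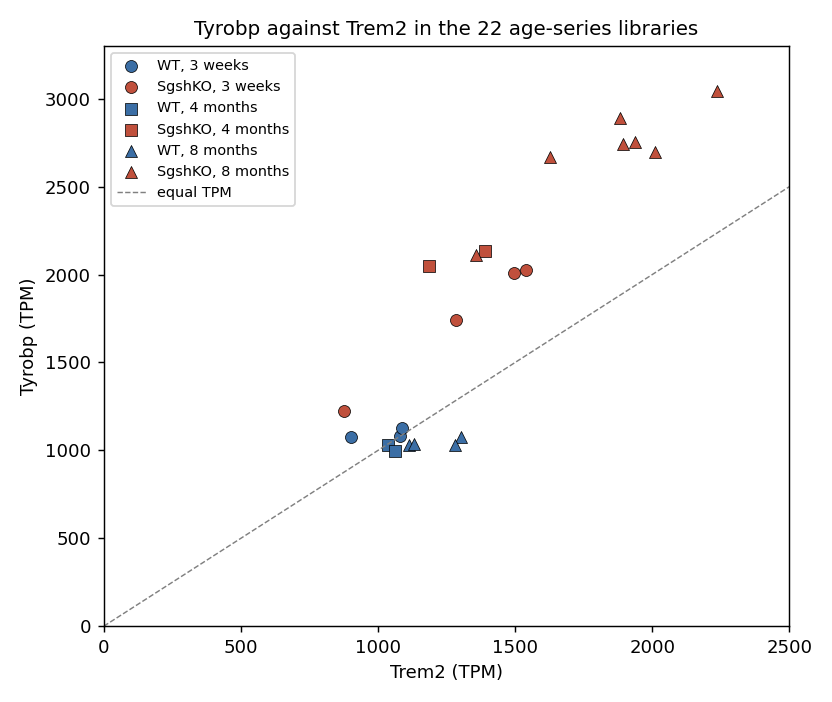
Tyrobp TPM (y axis) against Trem2 TPM (x axis) in the 22 age-series libraries (WT blue, SgshKO red; circles 3 weeks, squares 4 months, triangles 8 months), with a dashed line of equal TPM. All SgshKO libraries lie above the line, with ratios of 1.32 or more, while WT libraries lie close to it.

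The genes whose pattern over the 22 age-series libraries was most like each member were found by the root mean square difference of centred log2 CPM, as a description over libraries that share genotype, age and depth. For Trem2 these were Cyba, a subunit of the phagocyte NADPH oxidase (0.13), Nop53 (0.15) and the ribosomal protein gene Rpl8 (0.15). Tyrobp was close to Akr1a1 (0.14) and to Eef1b2 (0.17), the gene of a translation elongation factor. The median over all genes was 0.58 for Trem2 and 0.79 for Tyrobp. Syk was most like Asxl2, Nbr1 and Exoc3 (0.09 each), and Plcg2 like Flii (0.06), Supt5 (0.08) and Golga2 (0.08). Inpp5d was most like Prag1 (0.11), Mertk, a receptor for apoptotic cells (0.12), and Foxk1 (0.13), and Cd33 like Slc38a1 (0.11), Ppp3ca (0.13) and Plxnb2 (0.13).

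Other genes of the pathway were taken from 5 lists. Of 11 ligands and shedding proteases of TREM2, 1, 3 and 5 were called higher in SgshKO at 3 weeks, 4 months and 8 months, and 0, 0 and 2 lower. Their median log2 fold changes were 0.16, 0.21 and 0.38, beside -0.02, 0.02 and 0.02 over all genes, of which 9.03%, 19.5% and 40.5% were called. Apoe, a lipoprotein ligand of TREM2, rose by 2.09 ± 0.26 at 3 weeks and 4.90 ± 0.37 at 4 months on the log2 scale (edgeR adjusted p = 3.52e-06 and 1.25e-09), and was 17.2-fold higher at 8 months (1.59e-12). Lgals3, the gene of galectin-3, rose by 3.55 ± 0.40 at 4 months (edgeR adjusted p = 6.69e-07) and 4.32 ± 0.28 at 8 months (6.83e-12). Adam10, a protease that sheds TREM2, fell by 0.40 ± 0.08 at 8 months (edgeR adjusted p = 0.000424).

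Of the other ITAM receptors and adaptors, 16 of 18 were tested in the age series, and 2, 8 and 10 were called higher and 2, 3 and 3 lower at the 3 ages. Their medians were 0.06, 1.92 and 1.03, and the first is 0 when genes at or under 3 counts in both groups are set to 0. Over all genes 5.31%, 10.3% and 21.6% were called higher and 3.72%, 9.26% and 18.9% lower at these ages. At 3 weeks Clec7a, the gene of Dectin-1, rose by 1.34 ± 0.27 (edgeR adjusted p = 0.0015) and Fcer1g, an adaptor like Tyrobp, rose by 0.39 ± 0.08 (0.00159). Clec5a fell by 0.67 ± 0.14 (edgeR adjusted p = 0.00143) and Fcgr1, an Fc receptor gene, fell by 0.32 ± 0.09 (0.0284). Csf1r, a receptor kinase microglia depend on, fell by 0.71 ± 0.09 at 4 months (edgeR adjusted p = 2.74e-06) and 0.61 ± 0.05 at 8 months (2.66e-09). Siglech, which signals through TYROBP, fell by 0.43 ± 0.07 at 8 months (edgeR adjusted p = 1.27e-05), and Fcgr1 fell by 0.49 ± 0.12 at 4 months (0.00595).

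The largest increases on that list were of genes with no counts in WT. Trem3 had 282 counts in the 4-month SgshKO libraries and 449 in the 8-month ones and 0 in WT at both ages, at least 106-fold and 76.2-fold higher when the WT group is set to a floor of 3 counts in all. Trem1 had 177 counts at 4 months and 0 in WT, at least 66.7-fold higher. Sirpb1a, which has near-identical neighbours and is uncertain for that reason, had 61 counts against 0 at 8 months, at least 10.4-fold. These TREM-family genes are known from neutrophils and monocytes, and neutrophil marker sums were 2794 to 13827 CPM and 406 to 5455 CPM in the same SgshKO groups. Their part in the result was not tested. Without SgshKO replicate 2 of 4 months, which had the highest sum, 8 genes of this list were called in place of 11.

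Among the 11 Src-family kinases and regulators, which phosphorylate ITAMs or control the kinases that do, the called genes were mostly lower: 0, 1 and 2 higher and 3, 7 and 7 lower at the 3 ages. The medians were -0.25, -0.49 and -0.39. Over all genes 5.31%, 10.3% and 21.6% were called higher and 3.72%, 9.26% and 18.9% lower. Fyn fell by 1.01 ± 0.20, 1.38 ± 0.29 and 1.5 ± 0.16 (edgeR adjusted p = 0.00111, 0.0011 and 5.27e-08). Fgr, a Src-family kinase of myeloid cells, rose by 3.05 ± 0.39 at 4 months (edgeR adjusted p = 3.5e-06) and 2.72 ± 0.25 at 8 months (2.98e-09). Ptprc, the CD45 gene whose product was also a gate of the sort, rose by 0.47 ± 0.09 at 8 months (edgeR adjusted p = 0.000297). Cbl, a ubiquitin ligase gene, fell by 0.52 ± 0.10 at 3 weeks (edgeR adjusted p = 0.00059) and Ubash3b fell by 0.74 ± 0.17 at 4 months (0.00251).

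Among 31 effectors downstream of SYK, 1, 3 and 8 were called higher and 1, 9 and 11 lower, with medians of -0.10, -0.15 and -0.06. Of all genes 9.03%, 19.5% and 40.5% were called at these ages. The adaptor gene Blnk rose by 0.47 ± 0.09 at 3 weeks (edgeR adjusted p = 0.00154), and Lat2 fell by 0.89 ± 0.14 (7.55e-05). The protein kinase gene Prkcb rose by 0.53 ± 0.13 at 4 months (edgeR adjusted p = 0.00586) and 0.77 ± 0.09 at 8 months (7.19e-08). Pik3r1, a regulatory subunit of phosphoinositide 3-kinase, fell by 0.71 ± 0.16 and 1.07 ± 0.10 at these ages (edgeR adjusted p = 0.00297 and 4.05e-09). Nfatc2 fell by 0.65 ± 0.12 at 4 months (edgeR adjusted p = 0.000327) and Pik3r5 fell by 0.75 ± 0.12 at 8 months (1.31e-05). Vav3, a gene of a guanine nucleotide exchange factor, was called at both later ages and had 185 counts in SgshKO against 0 in WT at 8 months, at least 31.4-fold higher. Without SgshKO replicate 2 the number of effectors called at 4 months was 4 in place of 12.

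Of 23 inhibitory receptors and phosphatases besides Inpp5d and Cd33, 4, 7 and 10 were called higher and 2, 4 and 6 lower, with medians of -0.05, 0.13 and 0.22. Beside these counts stand the same 9.03%, 19.5% and 40.5% of all genes called. Cd22, a lectin of the same Siglec family as CD33, rose by 2.93 ± 0.13 at 3 weeks (edgeR adjusted p = 1.52e-13), and Pirb rose by 1.38 ± 0.15 (4.86e-07). Lilrb4a rose by 4.39 ± 0.31 at 4 months (edgeR adjusted p = 3.05e-10) and 4.72 ± 0.20 at 8 months (5.01e-15). Siglece, another Siglec gene, fell at each age, by 0.96 ± 0.09, 1.09 ± 0.12 and 1.32 ± 0.07 (edgeR adjusted p = 6.47e-08, 7.24e-07 and 4.95e-13). Dok3 fell by 0.90 ± 0.14 at 3 weeks (edgeR adjusted p = 8.45e-05) and 0.78 ± 0.19 at 4 months (0.00444), and Siglecg fell by 2.32 ± 0.47 at 8 months (0.000288). Clec12a had 764 counts in SgshKO against 0 in WT at 4 months, at least 288-fold higher. At 8 months it had 1047 against 3, which is 178 times the WT level, and the 95% interval for counting error ran from 60.6 to 863. Pirb and Lilrb4a belong to families of near-identical genes and are uncertain for that reason.

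The ASO libraries asked whether lowering MiT/TFE factors alters these genes. In WT, control ASO against PBS called 0 of the 6 members by edgeR, where 0% of all genes were called (0 of 10277, with 415 at an unadjusted p under 0.05). Of the members 1, Tyrobp, had an unadjusted p under 0.05, and DESeq2 called 0. Against the control ASO, 2 members were called higher with the Mitf ASO (11% of all genes), 1 with the Tfeb ASO (0.778%) and 1 with the Tfe3 ASO (2.16%). No member was called lower. Member medians were 0.05, 0.20 and 0.02, beside -0.01, 0.01 and -0.01 over all genes. Transcript length moved here too, and Tyrobp (559 bases) is in the short class. Medians under 1000 bases and from 4000 bases were 0.04 and -0.06 (Mitf ASO), 0.04 and -0.001 (Tfeb ASO) and 0.04 and -0.06 (Tfe3 ASO). With the combination in SgshKO they were 0.02 and 0.007. With the Mitf ASO 8.26% of short genes were called higher and 2.86% lower, and 2.85% and 8.22% of long ones. With the length offset Tyrobp was still called higher by edgeR with the Mitf, Tfeb and Tfe3 ASOs and with the combination. Trem2 was still called higher with the Mitf ASO.

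**Figure D4:**
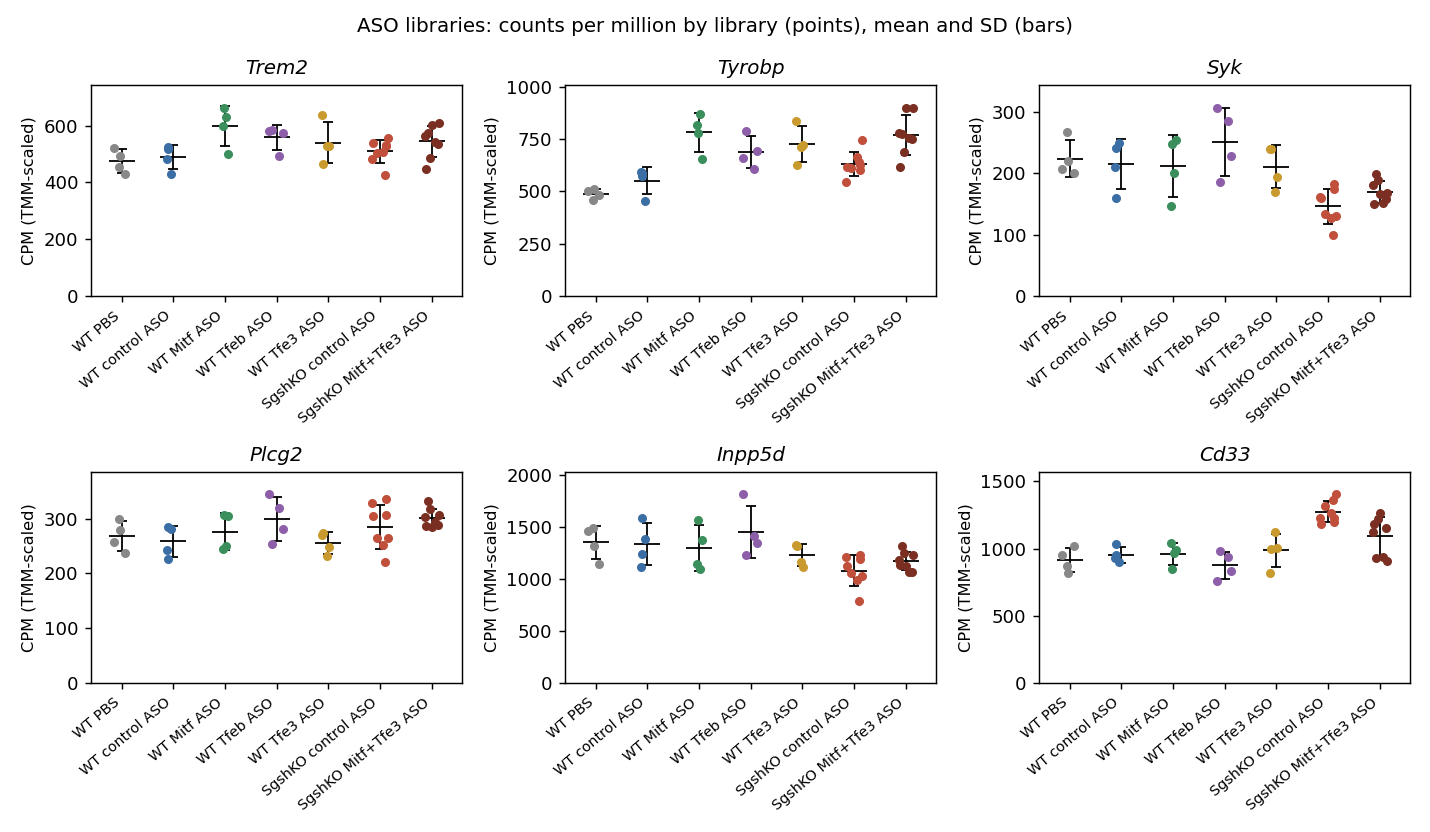
CPM (y axis) of the 6 members in each ASO library (points), with the mean and SD of each group as bars; the WT and SgshKO sets were scaled separately. In WT, Tyrobp in the groups given an ASO against Mitf, Tfeb or Tfe3 lies at 609.5 to 872 CPM, above the 454 to 591 CPM of the control ASO, and the Cd33, Inpp5d and Plcg2 groups overlap.

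Tyrobp was at 511, 482, 502 and 461 CPM after PBS and at 586, 591, 572 and 454 CPM after the control ASO. It was at 819, 872, 781 and 656 CPM after the Mitf ASO, 789.8, 694, 659 and 609.5 CPM after the Tfeb ASO and 715, 721, 838 and 627 CPM after the Tfe3 ASO. Each of these 12 libraries was above all 4 control ASO libraries, and in every group replicate 4 was the lowest. The log2 fold change by edgeR, with the grp number of the titles as a term, was 0.51 ± 0.06 (adjusted p = 6.38e-05) with the Mitf ASO, 0.33 ± 0.06 (0.0227) with the Tfeb ASO and 0.40 ± 0.06 (0.00303) with the Tfe3 ASO. All 3 comparisons share the same 4 control libraries. Without the grp term the Mitf ASO value was still called (edgeR adjusted p = 0.0131), and those of the Tfeb and Tfe3 ASOs were not (0.551 and 0.184). The Tfeb ASO call was also lost when any 1 of 6 of the 8 libraries was left out (all but control replicate 2 and Tfeb replicate 3; adjusted p up to 0.111).

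Trem2 was at 492, 428, 522 and 455 CPM after PBS, 518, 483, 526 and 429.8 CPM after the control ASO and 599.5, 629, 663 and 501 CPM after the Mitf ASO. The Mitf and control groups overlapped through replicate 4, and within each grp number the Mitf library was the higher. Trem2 rose by 0.29 ± 0.06 with the Mitf ASO (edgeR adjusted p = 0.00274), a call lost without the grp term (0.177). With the Tfeb ASO (585, 575, 581 and 494 CPM) and the Tfe3 ASO (529, 528, 638 and 463 CPM) the log2 fold changes by edgeR were 0.19 ± 0.06 (adjusted p = 0.124) and 0.14 ± 0.06 (0.222).

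Syk and Plcg2 were called with no single ASO by edgeR in the model of all 5 groups, nor by DESeq2. Fitted on the Tfeb and control groups alone, both were called for the Tfeb ASO (edgeR adjusted p = 0.0357 for Syk and 0.0252 for Plcg2), and so was Trem2 (0.0274). Syk was at 159, 210.0, 240.5 and 249 CPM after the control ASO, in the order of grp 1 to 4, and at 185, 227, 307 and 284 CPM after the Tfeb ASO (0.22 ± 0.09; edgeR adjusted p = 0.286). In both groups grp 1 was lowest, and the Tfeb library was the higher in each of the 4 grp numbers for Syk and for Plcg2. Of the 5 members with a promoter window, Plcg2 alone held a CACGTG. It was at 226, 242, 284 and 282 CPM after the control ASO and at 244, 249.9, 306 and 305 CPM after the Mitf ASO (0.10 ± 0.06, edgeR adjusted p = 0.369). It was at 254, 280.4, 345 and 319 CPM after the Tfeb ASO (0.21 ± 0.06; 0.146) and at 231 to 274 CPM after the Tfe3 ASO (-0.01 ± 0.06; 0.959).

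Inpp5d and Cd33 did not move by call in WT either. Inpp5d ranged from 1120.3 to 1591 CPM after the control ASO, from 1095 to 1573 CPM after the Mitf ASO, from 1235 to 1819 CPM after the Tfeb ASO and from 1119 to 1328 CPM after the Tfe3 ASO. Cd33 ranged from 898 to 1037, 847 to 1041, 758 to 979 and 819 to 1123 CPM in the same groups. Their log2 fold changes against the control ASO lay between -0.13 ± 0.08 (SE; Cd33, Tfeb ASO) and 0.12 ± 0.06 (Inpp5d, Tfeb ASO).

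Whether the ASOs differ from one another was tested directly, and no member was called by edgeR for Mitf against Tfeb (3.53% of all genes), Mitf against Tfe3 (3.76%) or Tfeb against Tfe3 (1.62%). At an unadjusted p under 0.05 there were 3, 1 and 3 members, and DESeq2 called 0, 0 and 2. The closest to a call by edgeR were Inpp5d (0.23 ± 0.06; adjusted p = 0.0668) and Plcg2 (0.22 ± 0.06; 0.0835), both higher with the Tfeb than with the Tfe3 ASO, and these were the 2 that DESeq2 called (adjusted p = 0.019 and 0.0323). For Tyrobp, Mitf exceeded Tfeb by 0.18 ± 0.06 (edgeR adjusted p = 0.135).

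In SgshKO mice, the Mitf and Tfe3 ASOs together were compared with the control ASO. Of the 6 members 1 was called, Tyrobp, which rose, against 9.33% of all genes. Tyrobp was at 545 to 744 CPM in the control libraries, with a median of 621, and at 617 to 901 CPM in the treated ones, with a median of 764. The groups overlapped, and the log2 fold change was 0.28 ± 0.06 (edgeR adjusted p = 0.00615). Within grp 1 alone it was 0.34 ± 0.09 (edgeR adjusted p = 0.0713) and within grp 2 alone 0.23 ± 0.07 (0.0888), with 4 libraries a side. Tyrobp was thus higher after lowering these factors in both genotypes, the same sign as its difference between SgshKO and WT. Mitf itself was not lower in age-series SgshKO libraries: its mean was 61.9 against 44.9 CPM in WT at 3 weeks. At 4 months it was 89.4 against 58.5 CPM, and at 8 months 87.7 against 48.9 CPM. Tfe3 means were 274 against 258, 203 against 225 and 228 against 219 CPM at these ages. How these levels relate to Tyrobp was not tested. The difference between the genotypes' ASO effects was not tested, since the libraries are in separate tables with other ASO combinations.

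For Cd33 and Syk the values are given by grp number. Cd33 in grp 1 was at 1363, 1403, 1318 and 1268 CPM in control and 905, 1264, 937 and 930.4 CPM in treated libraries, and in grp 2 at 1231, 1198, 1182 and 1229.6 CPM and 1186, 1154, 1124 and 1216 CPM. Over both it was -0.23 ± 0.07 (edgeR adjusted p = 0.0507), with -0.39 ± 0.10 (0.0724) within grp 1 and -0.06 ± 0.04 (0.417) within grp 2. DESeq2 called the pooled value (adjusted p = 0.0171), and so did edgeR when control replicate 4 of grp 2, treated replicate 1 or 4 of grp 2, or treated replicate 2 of grp 1 was left out. Syk in grp 1 was at 98.9, 131, 133 and 126 CPM in control and 168, 165, 151 and 199 CPM in treated libraries, with no overlap. In grp 2 it was at 182, 174, 159 and 162 CPM and 149, 158, 180.0 and 189 CPM. Its log2 fold change was 0.24 ± 0.09 over both (edgeR adjusted p = 0.103), 0.50 ± 0.11 within grp 1 (0.0537) and -0.01 ± 0.08 within grp 2 (0.947). Whether the grp numbers differ in these effects was not tested.

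Trem2 in SgshKO ran from 427 to 556 CPM after the control ASO (median 518) and from 448 to 608 CPM after the combination (median 552), or 0.09 ± 0.06 (edgeR adjusted p = 0.378). Plcg2 ran from 221 to 336 CPM (median 285) and from 285 to 332 CPM (median 298), or 0.09 ± 0.06 (edgeR adjusted p = 0.397). Inpp5d ran from 786 to 1237 CPM (median 1096) and from 1069 to 1316 CPM (median 1159.9), or 0.13 ± 0.07 (edgeR adjusted p = 0.281). All 3 overlapped between the groups. In grp 1 the sign of each was positive and in grp 2 negative, at 0.24 and -0.05 for Trem2, 0.30 and -0.11 for Plcg2, 0.31 and -0.05 for Inpp5d, none called.

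The counts of the pathway lists with the ASOs stand beside 11% of all genes called with the Mitf ASO, 0.778% with the Tfeb ASO, 2.16% with the Tfe3 ASO and 9.33% with the combination in SgshKO mice. Fcer1g, the adaptor that like Tyrobp carries an ITAM, rose with all 3: by 0.30 ± 0.05 with the Mitf ASO (edgeR adjusted p = 0.000455), 0.22 ± 0.05 with the Tfeb ASO (0.035) and 0.41 ± 0.05 with the Tfe3 ASO (0.000108). The Fc receptor gene Fcgr3 rose by 0.21 ± 0.05 with the Mitf ASO (edgeR adjusted p = 0.0117) and Fcgr4 rose by 0.44 ± 0.08 with the Tfe3 ASO (0.00478), making 2, 1 and 2 of 10 tested ITAM genes, all higher. Psenen, a gamma-secretase subunit, was the 1 of 9 ligand and shedding genes called with the Mitf ASO (0.34 ± 0.06; edgeR adjusted p = 0.00261) and with the Tfe3 ASO (0.25 ± 0.06; 0.048). Pag1, which recruits the kinase CSK, was the 1 of 11 on its list called, at -0.23 ± 0.05 with the Mitf ASO (edgeR adjusted p = 0.00701) and -0.23 ± 0.05 with the Tfe3 ASO (0.0258).

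Among 19 tested inhibitory genes, 4 were called higher and 5 lower with the Mitf ASO. Cd22 rose by 1.0 ± 0.14 (edgeR adjusted p = 0.000212) and Pirb by 0.53 ± 0.12 (0.00885), while Siglece fell by 0.35 ± 0.05 (0.000159) and Cd200r1 fell by 0.43 ± 0.09 (0.00598).

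In SgshKO mice given both ASOs, 6 of 10 ITAM genes were called higher and 1 lower. Siglech rose by 0.46 ± 0.06 (edgeR adjusted p = 0.000283) and Fcgr4 by 0.24 ± 0.06 (0.016), and Clec7a fell by 0.55 ± 0.07 (0.000219). Psenen rose by 0.29 ± 0.06 (edgeR adjusted p = 0.00759) and Lgals3 fell by 0.53 ± 0.11 (0.00688), 2 of 11 on their list. Of 29 effectors Lat2 rose by 0.43 ± 0.06 (edgeR adjusted p = 0.000284), Gab2 rose by 0.28 ± 0.07 (0.0244) and Sh3bp2 fell by 0.27 ± 0.06 (0.0114). Of 18 inhibitory genes 3 fell, among them Cd300a by 0.24 ± 0.07 (edgeR adjusted p = 0.0287) and Pirb by 0.23 ± 0.07 (0.0323).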

How the data were processed

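Raw counts per gene were deposited by the authors for 22 age-series libraries, 20 WT ASO libraries and 16 SgshKO ASO libraries. The authors also deposited TPM for the age series and a normalised, batch-corrected signal for the ASO sets, whose methods are not given in the sources used here. The submitters' processing notes name STAR 2.5.3a, kallisto 0.44.0, HOMER 4.11, DESeq2 1.36.0, R 4.2.3 and the build mm10, without roles. Per the labels' protocols the libraries were stranded and polyA-selected. How reads shared by near-identical genes were counted is not given there.

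Counts were tested with edgeR 4.0.16 in R 4.3.3 (TMM, filterByExpr with a minimum count of 10, quasi-likelihood F test), 1 model per file, with Benjamini-Hochberg adjustment over the 14309, 10277 and 10589 genes tested and a threshold of 0.05. The ASO models held grp as a term, the age model none. The SE is the absolute log2 fold change divided by the square root of F, and so restates the test. The members and lists were chosen with earlier results of these data known. Named genes are the members, the 2 largest increases and decreases per list among called genes (given for genotype comparisons and those with the control ASO), the 3 most alike genes per member and the ASO targets; a few genes that this rule names are not reported here. DESeq2 1.42.0 and limma 3.58.1 gave alternatives, with pseudocounts of 1 or 0.1 for TPM (genes at 1 TPM in 2 libraries) and 1 for the signal. The length offset is a lowess trend (span 0.5) of each library's log2 CPM deviations over transcript length. The scripts were tested on simulated counts. Counting intervals and floors of 3 counts cover counting error only.

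Same-numbered libraries of the age series had residual correlations of -0.171 to 0.115, and so were not paired. In the WT ASO set grp equals the replicate number, and same-grp libraries had r of -0.0333 to 0.640. In the SgshKO ASO set same-numbered libraries within a grp had r of 0.0839 to 0.612, with 3 of 8 pairs under 0.1, so the model held grp and not the replicate number. PBS replicate 4 is grp 4 by its title and grp 3 by its column, and was kept in grp 4.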

Additional observations from a re-analysis of the deposited data

Results flagged for a closer look

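Among 60 pairs of a member and a group of 4 to 8 libraries, 4 held a library far from the others, close to the 1 in 20 that chance gives. Trem2 in Tfeb ASO replicate 4 was at 494 CPM, against 575 to 585 CPM in the other 3. Tyrobp in WT control ASO replicate 4 was at 454 CPM, against 572 to 591 CPM. Syk in SgshKO replicate 3 of 3 weeks was at 359.8 CPM, against 398 to 405 CPM. Plcg2 in SgshKO replicate 1 of 3 weeks was at 311 CPM, against 347 to 350.0 CPM, and the same library was the lowest of its group in Trem2 and Tyrobp.

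The SgshKO effect on Tyrobp was larger at 8 months than at 3 weeks by 0.77 on the log2 scale (edgeR interaction test, adjusted p = 0.00535). It was higher than WT in 4 of 4 libraries at 3 weeks and 7 of 7 at 8 months. Leaving out any 1 library gave 0.62 to 0.85, and the length offset gave 0.38 (adjusted p = 0.0331).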

How the results depend on the processing

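Over 120 values (6 members in 20 comparisons), 2040 recomputed values gave no reversal of a called value; 54 lost a call, 30 gained one, and 83 of values called in neither fit had the other sign. The number of members called moved as follows. With TPM and limma at either pseudocount it was 1 at 3 weeks (2 in the counts), 2 at 4 months (1) and 1 for SgshKO at 8 against 4 months (2). DESeq2 gave 2 at 4 months, 2 for Tfeb against Tfe3 (0) and 2 for the SgshKO ASOs (1). Without a filter it was 3 at 8 months (5). RLE factors gave 1 and the replicate block 0 for SgshKO at 8 against 4 months; the replicate block moved no other count of members past 1.5 times. With no replicate block (no grp term) the Mitf, Tfeb and Tfe3 ASOs gave 1, 0 and 0 (2, 1 and 1). Fitting only the 2 groups compared gave 4 for the Tfeb ASO, 1 for Mitf against Tfeb and 2 for Tfeb against Tfe3. The length offset gave 1 for WT at 8 months against 3 weeks (0) and 2 for the SgshKO ASOs, where the batch-corrected signal gave 2 and grp 1 or grp 2 alone 0. Leaving out 1 library gave 1 to 2 at 3 weeks, 1 to 2 at 4 months, 3 to 5 at 8 months, 0 to 1 for the change of effect from 3 weeks to 4 months, 1 to 2 for SgshKO at 4 months against 3 weeks, 0 to 2 at 8 against 4 months, 0 to 1 for the Tfeb ASO and for Mitf against Tfeb, 0 to 2 for Tfeb against Tfe3 and 1 to 3 for the SgshKO ASOs. Leaving out 1 of the 2 libraries of a 4-month group assumes the lone one varies like the other groups. Beyond fewer libraries or genes in a fit, the cause was not tested.

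Counts over all genes moved most for the Tfeb ASO (80; DESeq2 213, only 2 groups 450, signal 145, no grp term 9), the Tfe3 ASO (222; DESeq2 403, no grp term 29), the Mitf ASO (1128; no grp term 211) and the SgshKO ASOs (988; no grp term 452, grp 1 192, grp 2 430). The change of the SgshKO effect gave 361 genes from 3 weeks to 4 months (DESeq2 692, TPM 683) and 56 from 4 to 8 months (DESeq2 168, no filter 131, replicate block 21, TPM 86). WT at 4 months against 3 weeks gave 746 (only 2 groups 1518), SgshKO at 8 against 4 months 2832 (replicate block 1406). For the pairs of ASOs it was 363 (DESeq2 573, no grp term 33), 386 (no grp term 100) and 167 (DESeq2 429, only 2 groups 359, signal 284, no grp term 7), and for control ASO against PBS 0 (DESeq2 2, signal 1).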
